A study of Mus musculus with 12 samples.

Results

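The brains of mice with cerebral ischemia and lactate were compared with those of sham mice, 4 mice in each group out of 12 in the series. All were C57BL/6 mice of 8 weeks, and the labels name the tissue as brain with no region or hemisphere. In the study's methods the left middle cerebral artery was occluded for a 6 h ischemia, after D-lactate (2 µL at 100 mmol/L) had been given into the ventricles 24 h before surgery. The labels give the sham mice no injection, so occlusion, injection and lactate cannot be told apart in this comparison. Another group of 4 mice had the same 6 h ischemia after vehicle, and its values are set beside those of the genes described.

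Each library was a set of long nanopore cDNA reads counted per gene, and a level is given in CPM, the count scaled to the total count of its library. The 4 sham libraries held 7363426 to 8971103 counts and the 4 lactate libraries 7395179 to 8624354, so that 3 counts were worth 0.334 to 0.407 CPM in sham and 0.348 to 0.406 CPM with lactate. Of 31208 genes and loci in the table, 22036 carried an Ensembl identifier, and 13167 of these reached 1 CPM in at least 4 of the 8 mice. These 13167 genes are the ones described. The other loci tested, 4095 in number, entered the fit but are not described.

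The labelled tissue was checked by defining markers of brain cells. Snap25, a protein of synaptic vesicle fusion, ranged from 624 to 689 CPM in sham and from 534 to 675 CPM with lactate. Mbp, the myelin basic protein, ranged from 5567 to 9134 CPM in sham and from 7111 to 8172 CPM with lactate. Slc1a2, the glutamate transporter of astrocytes, stood at 384 to 630 and 475 to 615 CPM, and Csf1r, the growth factor receptor of microglia, at 33.6 to 41.8 and 35.7 to 44.2 CPM. Kl and Folr1, which mark the choroid plexus, were too low to test, with at most 1.86 CPM in any of the 8 mice. Not every marker checked was steady. P2ry12 of microglia stood at 41 to 52.9 CPM in sham and 15.8 to 29.9 CPM with lactate. Mog of oligodendrocytes stood at 140.4 to 246 and 119 to 127 CPM. Ttr, also of the choroid plexus, stood at 0.815 to 2.9 and 7.78 to 16.2 CPM. The neutrophil markers S100a8 and S100a9 were higher with lactate too. Fewer cells of a type and less RNA in each cell cannot be told apart in such whole-tissue libraries.

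When an artery of the brain is blocked, neurons lose oxygen and glucose, glutamate is released and ions flow in, and within hours cells turn on genes for misfolded proteins, for low oxygen and for oxidative damage. Microglia and astrocytes react, vessel walls are activated, and neutrophils and monocytes arrive from the blood. Lactate is the end product of glycolysis without oxygen. It is carried between astrocytes and neurons by monocarboxylate transporters and is also the donor for lactylation, the addition of lactyl groups to lysines of proteins.

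More genes rose than fell in the brains with ischemia and lactate, among them 16 of 20 reactive glia genes, 15 of 25 heat shock genes and 13 of 21 genes of cytokine receptors and their signalling. A gene was called higher or lower where its P value, adjusted after Benjamini and Hochberg over all 17262 genes and loci tested with the edgeR quasi-likelihood test, was under 0.05 and its fold change was at least 1.5. Of the 13167 genes, 525 were higher with lactate (3.99%) and 374 were lower (2.84%). Over all 17262 genes and loci the shares were 7.88% and 2.52%. The median log2 fold change was 1.09 among the genes called higher and -0.84 among those called lower, against -0.06 over the 13167 genes. A change of at least 4-fold was reached by 95 genes that rose and by 10 that fell. In 480 of the 525 and in 330 of the 374 the CPM of the sham and lactate mice did not overlap, as in 2127 of all 13167.

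The balance of rises and falls depended on what was fitted. With the Ensembl genes alone in the fit, 548 genes were higher and 241 lower, so that 69.5% of the calls were rises in place of 58.4%. Both fits shared 510 of the rises, and all 241 falls were also called in the wider fit. The counts were nearly even without a filter on low counts, at 469 higher and 465 lower, and stood at 482 and 426 with library totals in place of TMM scaling. Leaving out sham mouse 3 lowered the falls to 214 and leaving out sham mouse 1 lowered them to 227. Of the 525 genes that rose, 44 were under 1 CPM in every sham mouse and so entered the test through the lactate mice, and of the 374 that fell 16 were under 1 CPM in every lactate mouse and entered through the sham mice. Those 44 include Lcn2, Timp1, Lilrb4a, Plin4, Saa3, Ccl2, Ccl7, Ccl9, Retnlg, Il1r2, Cebpd, C5ar1, Cd44, Tubb6 and Ch25h, and those 16 include Gkn3, Edn3 and Npy1r. With all 12 mice in one fit 50 of the 207 named genes called lost the call. Among them were 11 that were called whichever mouse was left out, namely Aspa, Scn1a, Chrm4, Ciart, Ttr, Cacybp, P4ha1, Ptgs2, Gpr34, Golm1 and Klf9, with an adjusted P of 0.0508 (Ciart) to 0.292 (Klf9) in that fit.

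**Figure D1:**
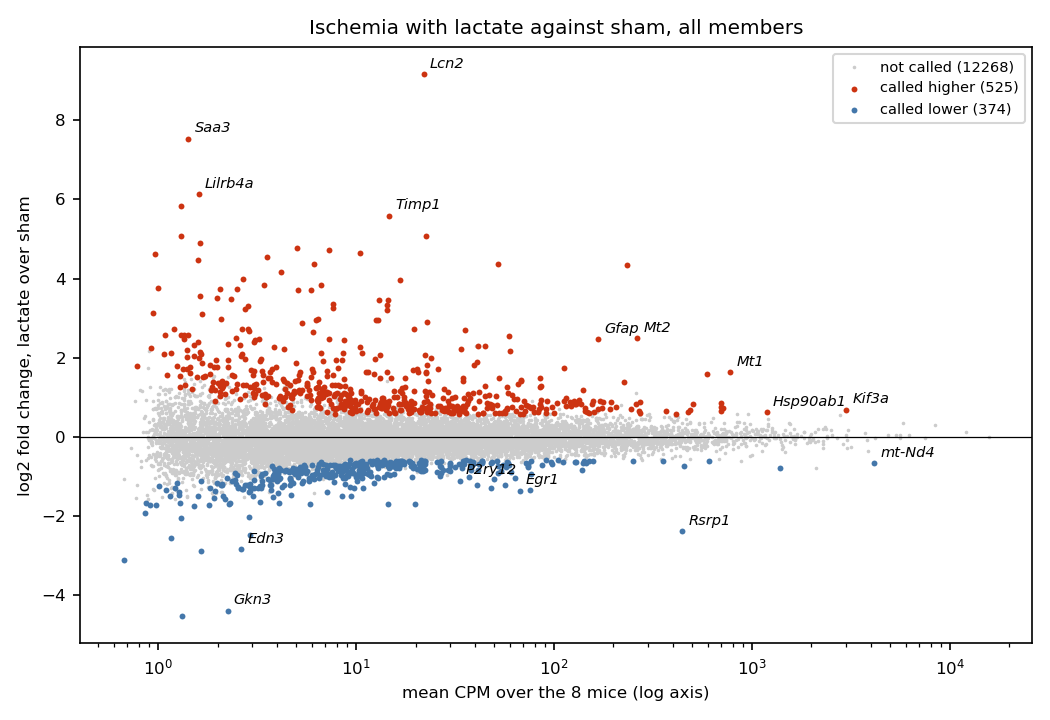
Log2 fold change of lactate over sham against the mean CPM of the 8 mice on a log axis for the 13167 Ensembl genes, with 525 genes called higher, 374 called lower and the others drawn apart by colour. Rises reach further from 0 than falls, and both are seen over the whole range of abundance.

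Among genes of at least 3 CPM with lactate whose groups did not overlap, Lcn2 had the largest fold change, of uncertain size with only 2 sham counts. It encodes lipocalin 2, a secreted protein that binds the iron carriers of bacteria and is made by reactive astrocytes and by neutrophils, and it lies at chr2:32384633-32388252 of GRCm38. Its level was 0, 0, 0 and 0.247 CPM in the sham mice and 45.8, 44.9, 43.6 and 41.3 CPM in the lactate mice. Only 2 counts were found in all 4 sham libraries against 1401 in the lactate libraries, and the ratio of the summed levels was 702 (exact 95% interval 194 to 5803, for counting error only). The 4 vehicle mice lay between both groups at 24.8, 22.5, 21.5 and 27.3 CPM.

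Timp1, a tissue inhibitor of metalloproteinases, stood at 0.527, 0.557, 0.407 and 0.863 CPM in sham and 32.3, 22.9, 32 and 27.7 CPM with lactate, a log2 fold change of 5.59 ± 0.25, errors being standard errors throughout. Timp1 entered the test through the lactate mice. A2m, the protease inhibitor alpha-2-macroglobulin, stood at 1.45, 1.11, 1.49 and 1.23 CPM in sham and 28.7, 52, 36.8 and 58 CPM with lactate, a log2 fold change of 5.07 ± 0.27 (adjusted P = 1.2e-07). No lactate mouse came near the sham range of either gene, though groups without overlap were a condition for naming these rises. Lilrb4a, an inhibitory receptor of myeloid cells, gave 1 count in the sham libraries and 103 in the lactate libraries, a ratio of 103 (exact 95% interval 18.1 to 4117).

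Among the other large rises were Tmem252, a membrane protein, with 0.132 to 1.6 CPM in sham and 14.1 to 26.5 CPM with lactate, and Scgb3a1, a secretoglobin, with 0 to 1.09 and 9.58 to 17.6 CPM. Their log2 fold changes were 4.64 ± 0.38 (adjusted P = 4.66e-06) and 4.72 ± 0.48 (adjusted P = 4.66e-05). Plin4, which coats lipid droplets, rose from 0 to 0.543 CPM to 6.15 to 7.98 CPM. The inducible heat shock genes Hspa1a and Hspa1b, the chemokine Ccl2 and the myeloid genes S100a9 and Retnlg complete the 12 largest rises among genes of at least 3 CPM with lactate whose groups did not overlap, and are described with their groups. Ctla2a, a protease inhibitor related to the propeptide of cathepsins, was chosen after its values were seen because it rose so far from a measurable level, from 22.8, 21.5, 18.2 and 26.9 CPM in sham to 387, 624, 463 and 311 CPM with lactate, a log2 fold change of 4.35 ± 0.21 (adjusted P = 6.66e-08).

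The falls were ranked in the same way, among genes of at least 3 CPM in sham, and Gkn3 stood first. It and Edn3 were under 1 CPM in every lactate mouse and so entered the test through the sham mice. This gene, gastrokine 3, known in brain from the endothelium of arteries, stood at 3.82, 5.46, 4.35 and 3.58 CPM in sham and 0, 0.12, 0.527 and 0.116 CPM with lactate, and lies at chr6:87383256-87388935. It had 139 counts in the sham libraries and 6 in the lactate libraries. Slco1a4, an anion transporter of the blood-brain barrier, fell from 31.9, 22.2, 36.5 and 31.2 CPM to 7.3, 5.39, 12.9 and 11 CPM, a log2 fold change of -1.70 ± 0.24 (adjusted P = 0.000726). That the highest lactate mouse lay under the lowest sham mouse in both genes was a condition of this ranking.

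Edn3, the vessel peptide endothelin 3, fell from 4.35 to 4.81 CPM to 0.464 to 0.791 CPM, by 2.83 ± 0.29 on the log2 scale. Gbp4, a guanylate-binding GTPase of the interferon response, fell from 3.80 to 6.73 CPM to 0.135 to 1.86 CPM. Others among the 12 largest falls were Serpinb1a, an inhibitor of neutrophil elastase, with a log2 fold change of -1.66, Adamtsl2, a matrix protein, with -1.68, and Lrrtm4, a synaptic adhesion protein, with -1.50. Tcap, Pcdh20 and Atp10a gave -1.63, -1.57 and -1.50. Stx2, with -1.66 ± 0.45, lost its call in 6 of the 8 fits that left out 1 mouse, where it ranged from -2.42 to -1.35.

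Rsrp1, an arginine- and serine-rich nuclear protein, also fell, from 335, 356, 1434 and 869 CPM in sham to 98.3, 169, 143 and 157 CPM with lactate, a log2 fold change of -2.37 ± 0.39 (adjusted P = 0.00205). The sham mice were far apart, with mice 3 and 4 above mice 1 and 2, and lactate mice under every sham mouse were a condition for naming these falls. Mice 3 and 4 of the sham group were also above mice 1 and 2 in Nptn, a neuronal adhesion protein, with 1283, 1214, 2177 and 2381 CPM against 882, 1028, 1089.7 and 1047 CPM with lactate, and its call was lost in 3 of the 8 fits.

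**Figure D2:**
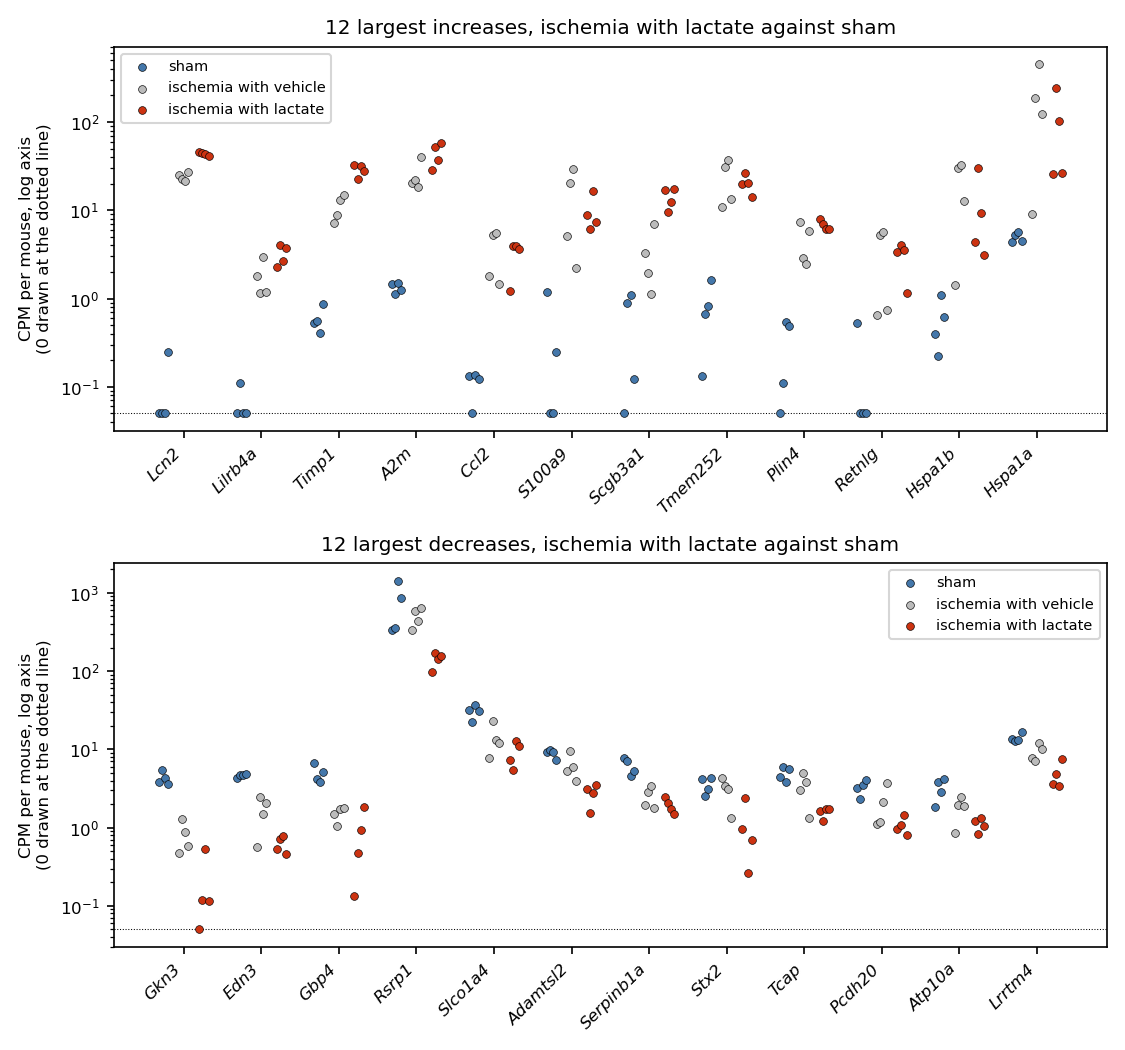
CPM on a log scale of the 12 largest rises and the 12 largest falls in each of 4 sham, 4 vehicle and 4 lactate mice. That sham and lactate mice do not overlap in any of the 24 genes was a condition of their choice. Lcn2 stands at 0 to 0.247 CPM in sham and 41.3 to 45.8 CPM with lactate.

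The acute-phase and protease-inhibitor genes rose in 7 of 8 tested, with a median log2 fold change of 3.99 beside -0.06 over all 13167 genes. All 7 calls were kept whichever mouse was left out, and 3 of the 8 genes were under 1 CPM in every sham mouse. Besides Lcn2, Timp1 and A2m they were Serpina3n, a serpin of reactive astrocytes, Saa3, a serum amyloid A protein, Cp, the copper-carrying ferroxidase ceruloplasmin, and Serping1, the inhibitor of complement C1. Serpina3n stood at 4.09, 5.02, 7.33 and 5.43 CPM in sham and 29.3, 31, 32 and 67.6 CPM with lactate, with lactate mouse 4 far above the others. Saa3 had no count in sham and 92 with lactate, at least 30.7-fold higher over a floor of 3 counts in the sham group. Cp and Serping1 rose by 1.65 and 1.01 on the log2 scale.

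Of the cytokines and chemokines, 14 of 22 were too low to test, among them Il1b with at most 5 counts in a sham library and 7 in a lactate library, Tnf with at most 0 and 4, and Il6 with at most 1 and 5. Others of the untested genes reached higher counts in some lactate libraries, with at most 2 counts in a sham library for Ccl4, Ccl3, Cxcl1 and Ccl5 and up to 80, 40, 35 and 33 counts in a lactate library. Ccl4 stood at 0.811 to 9.58 CPM with lactate. Of the 8 tested, 4 chemokines that draw monocytes rose, and 3 of the 8 were under 1 CPM in every sham mouse and so entered the test through the lactate mice. Ccl12 stood at 1.85, 2.68, 2.99 and 2.22 CPM in sham and 19.3, 21.6, 34.8 and 30.1 CPM with lactate, a log2 fold change of 3.46 ± 0.24 (adjusted P = 1.17e-06). Ccl2 gave 3 counts in sham and 103 with lactate, a ratio of 34.4 (exact 95% interval 11.5 to 170), and its lactate mice held 1.22, 3.95, 3.96 and 3.59 CPM. Ccl9 and Ccl7 rose to 3.38 to 4.07 and 1.35 to 2.24 CPM from at most 0.791 and 0.264 CPM in sham. Chemokine genes of this cluster resemble each other, so the split of reads between them is uncertain. Cxcl12, which keeps leukocytes and progenitors in place, went the other way, from 25.6, 22.1, 29.7 and 26.5 CPM to 10.4, 7.9, 17.1 and 14.7 CPM, a log2 fold change of -1.02 ± 0.21 (adjusted P = 0.00782).

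Genes of cytokine receptors and of NF-kappa B and Stat3 signalling rose in 13 of 21 tested and fell in none, with a median log2 fold change of 1.28. All 13 were called in each of the 8 fits that left out 1 mouse, and 1 of the 21 was under 1 CPM in every sham mouse. Cd14, the coreceptor for bacterial lipopolysaccharide, stood at 2.11, 2.45, 2.31 and 1.97 CPM in sham and 15.6, 38, 25.1 and 17.5 CPM with lactate. Socs3, which feeds back on Stat3 signalling, went from 1.05, 1.00, 2.17 and 1.6 CPM to 9.47, 12.7, 11.9 and 10.6 CPM, a log2 fold change of 2.96 ± 0.26 (adjusted P = 9.68e-06). Nfkbia, the inhibitor that NF-kappa B itself induces, went from 11.5, 8.81, 12.2 and 11.8 CPM to 35, 31.4, 33.9 and 35.7 CPM, a log2 fold change of 1.65 ± 0.14 (adjusted P = 8.19e-06). Sham and lactate mice were apart in all of these.

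Smaller rises in this group were those of Stat3 itself (0.87), the adaptor Myd88 (1.28), the receptors Tnfrsf1a (1.36), Tnfrsf12a (1.10), Il1r1 (1.55), Il4ra (1.91) and Osmr (2.40), the transcription factor Cebpd (2.01) and Nfkbiz (1.51), an NF-kappa B cofactor. Ptgs2, the inducible cyclooxygenase, stood at 2.64, 3.68, 2.72 and 4.32 CPM in sham and 9.87, 26.7, 5.93 and 7.88 CPM with lactate, where mouse 2 was the highest, and gave 1.25 (adjusted P = 0.0113) without that mouse and an adjusted P of 0.117 with all 12 mice in one fit.

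Of 21 neutrophil and monocyte genes 9 could be tested, and 6 of them rose, with a median of 3.83, but 3 of the 9 were under 1 CPM in every sham mouse and entered the test through the lactate mice. S100a8, a calcium-binding protein stored by neutrophils, stood at 1.05, 0.446, 0.815 and 1.23 CPM in sham and 10.5, 12, 19.6 and 7.77 CPM with lactate, a log2 fold change of 3.83 ± 0.36 (adjusted P = 2.26e-05). Its partner S100a9 stood at 1.19, 0, 0 and 0.247 CPM and 8.92, 6.11, 16.5 and 7.3 CPM. Retnlg, a resistin-like protein of neutrophils, had 4 counts in sham and 96 with lactate, and Il1r2, the decoy receptor of interleukin 1, had 2 and 82. Lyz2, the lysozyme of myeloid cells, rose by 1.12 on the log2 scale. Neutrophil granule genes were at or near 0, with at most 1 count in any of these libraries for Cd177, Ngp, Camp, Ltf and Ly6g and at most 4 for Mmp8. Csf3r, the receptor of the neutrophil growth factor, gave a log2 fold change of -0.06 ± 0.54 and was not called. The summed level of the 9 genes was 10.5 to 14.1 CPM in sham and 39.4 to 65 CPM with lactate.

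Microglia-enriched genes moved in both directions. Among 18 homeostatic microglia genes 4 rose and 3 fell, with a median of 0.16. P2ry12, the purine receptor by which resting microglia sense ATP and ADP, fell from 41, 44.6, 44.8 and 52.9 CPM to 29.9, 20.1, 15.8 and 17.9 CPM, a log2 fold change of -1.10 ± 0.19 (adjusted P = 0.00265). P2ry13 and Gpr34, other receptors of resting microglia, fell by 1.10 and 1.28. Ctss, the protease cathepsin S, and Fcrls, an Fc receptor-like scavenger receptor, rose from 93.1 to 120.2 to 152 to 184 CPM and from 55.6 to 67.1 to 79.9 to 123 CPM. The rise of Tyrobp, a signalling adaptor of microglia, was 0.63 ± 0.14 with all mice and 0.52 (adjusted P = 0.028) without sham mouse 3, where the fold change fell short of 1.5. The summed level of the 18 genes overlapped between the groups, at 2221 to 2495 CPM in sham and 2243 to 2431 CPM with lactate.

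Complement genes rose in 7 of 14 tested and fell in none, with a median log2 fold change of 1.08, and 1 of the 14 was under 1 CPM in every sham mouse. The 3 chains of C1q, which start the classical pathway and are made by microglia in brain, rose together. C1qa stood at 29.7, 54.6, 33.1 and 34.2 CPM in sham and 103, 101, 97.2 and 94.3 CPM with lactate, C1qb at 33.1, 34.9, 39.4 and 31.7 and 84.9, 77.7, 88.5 and 73.2 CPM, and C1qc at 34.8, 29, 36.4 and 35.2 and 73.8, 63.8, 68.2 and 67.4 CPM. Each chain was higher in every lactate mouse than in every sham mouse, and the log2 fold changes were 1.40 ± 0.18, 1.25 ± 0.12 and 1.05 ± 0.11. C5ar1, the receptor for the C5a fragment, rose from 0.132 to 0.74 to 3.01 to 5.54 CPM and C4b by 1.65 on the log2 scale. C3 was too low to test, with no count in sham and at most 9 in a lactate library.

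Antigen presentation genes rose in 5 of 15, but only H2-D1, a class I molecule, and Cd74, the invariant chain of class II, kept the call whichever mouse was left out. H2-D1 went from 78.7, 64, 55 and 44.5 CPM to 104, 122, 115 and 107 CPM and Cd74 from 1.85, 1.78, 1.36 and 2.1 CPM to 4.33, 2.99, 4.88 and 5.22 CPM. H2-K1, with a log2 fold change of 0.63 ± 0.15, gave 0.49 (adjusted P = 0.036) without lactate mouse 4 and 0.58 (adjusted P = 0.0442) without sham mouse 1. For the class II chains H2-Aa and H2-Ab1 the log2 fold changes were 1.19 and 1.32, and their calls were lost in 5 and 2 of the 8 fits. Interferon-induced genes rose in 7 of 22, and 5 kept the call whichever mouse was left out, namely the membrane proteins Ifitm1, Ifitm2, Ifitm3 and Bst2 and the transcription factor Irf7. Ifitm3 stood at 8.84, 12.2, 10.6 and 9.13 CPM in sham and 23.8, 32.8, 36.5 and 30.8 CPM with lactate. Ifit3 and Isg15 lost the call in 7 and 6 of the 8 fits and were low in lactate mouse 1, at 6.49 and 3.25 CPM, within the sham ranges of 5.98 to 8.03 and 2.85 to 3.58 CPM. Gbp4, one of the 12 largest falls, is interferon-induced too but not in this list. The H2 and Ifitm genes are families of like sequence whose reads may have been split in counting.

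Reactive glia genes of the cytoskeleton, matrix and cell adhesion rose in 16 of 20 tested and fell in none, with a median of 1.57, and 11 of the 16 were called whichever mouse was left out. Of the 20, 2 were under 1 CPM in every sham mouse. Gfap, the intermediate filament of astrocytes, stood at 73.7, 54.5, 46.7 and 34.5 CPM in sham and 248, 262, 289 and 334 CPM with lactate, a log2 fold change of 2.47 ± 0.18 (adjusted P = 1.99e-06). Spp1, the secreted matrix protein osteopontin, went from 26.8, 21.1, 19.7 and 20.6 CPM to 86.8, 102, 113 and 90.1 CPM, a log2 fold change of 2.18 ± 0.13 (adjusted P = 3.53e-07). Vim, the filament vimentin, went from 10.02, 10.03, 8.56 and 8.63 CPM to 21.2, 30.1, 33.4 and 33.9 CPM. No mouse of one group reached the range of the other in these 3 genes.

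Cd44, the hyaluronan receptor, had 9 counts in sham and 122 with lactate, and Lgals3, a galectin of phagocytes, 27 and 355. Leaving out 1 mouse moved the log2 fold change of Lgals3 between 3.32 and 5.21. Emp1, Tubb6 and Anxa2 rose by 2.46, 2.68 and 1.72 on the log2 scale, and S100a6 and S100a11 by 0.90 and 0.94. Sphk1, which makes sphingosine 1-phosphate, had 2.08 ± 0.63 with lactate mouse 2 at 53.1 CPM and the others at 8.00 to 13.9 CPM, and 1.05 (adjusted P = 0.196) without that mouse. Calls of Nes, Anxa1 and Tm4sf1 were lost in 5, 6 and 7 of the 8 fits, and Itga5 gave 1.39 (adjusted P = 0.0519) without sham mouse 3. Homeostatic astrocyte genes stood at a median of 0.01, with 1 of 20 higher and 2 lower, beside 3.99% and 2.84% of all 13167 genes. Gjb6, connexin 30 of astrocyte gap junctions, rose from 22.8 to 32.7 to 38.5 to 55.3 CPM, and Slc7a10, an amino acid exchanger of astrocytes, fell from 16.7 to 19.6 to 9.49 to 12 CPM. Sox9, an astrocyte transcription factor, had -0.73 ± 0.21 and lost its call in 6 of the 8 fits.

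**Figure D3:**
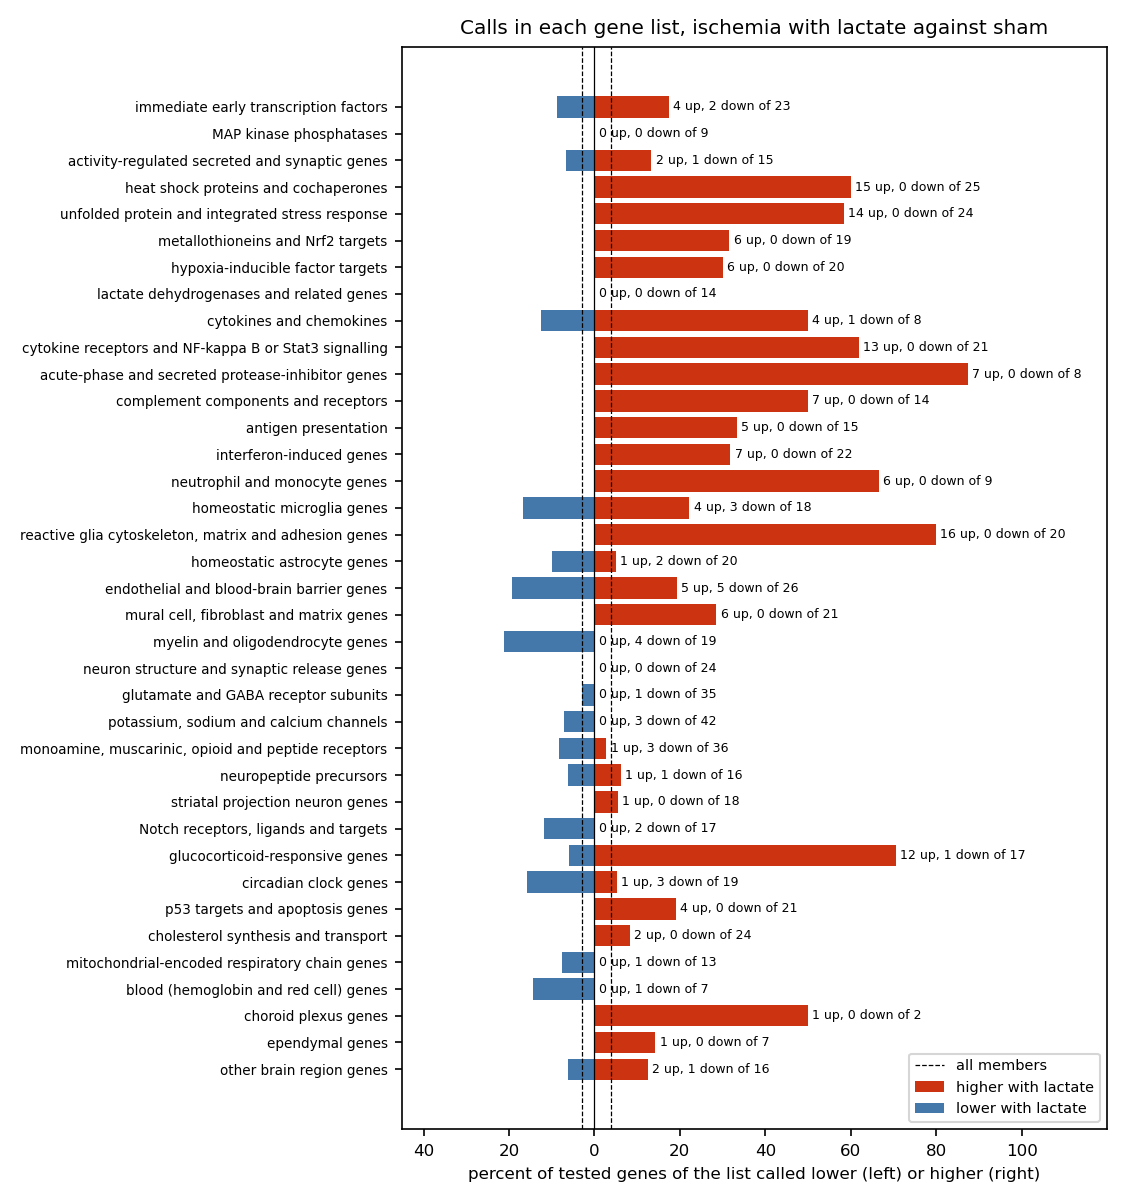
Percent of the tested genes called higher (right) and lower (left) with lactate in each of the 37 gene lists, with the counts beside the bars and dashed lines at the shares of all 13167 genes. The bars on the right stand for 7 of 8 acute-phase genes, 16 of 20 for reactive glia, 15 of 25 for heat shock and 13 of 21 for cytokine receptors and signalling, and 0 of 24 for neuron structure. Of all 13167 genes 3.99% were higher.

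Heat shock proteins hold and refold damaged proteins, and their genes are switched on by heat shock factor 1 through an element built of GAA repeats. The promoters of Hspa1a, the inducible Hsp70, and Hspb1, the small heat shock protein 25, are shown because both genes rose steeply and carry this element. Each runs from 250 bases before to 50 after the start of the gene in RefSeq (GRCm38.p6), at chr17:34972107-34972406 on the minus strand and chr5:135887669-135887968 on the plus strand, and capitals mark GAANNTTC.
Hspa1a: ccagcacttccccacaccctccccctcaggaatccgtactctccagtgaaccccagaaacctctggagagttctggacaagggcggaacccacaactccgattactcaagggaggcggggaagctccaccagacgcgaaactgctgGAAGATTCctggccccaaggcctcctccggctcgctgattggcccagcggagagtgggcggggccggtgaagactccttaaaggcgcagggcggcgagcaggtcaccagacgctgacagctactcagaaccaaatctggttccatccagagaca
Hspb1: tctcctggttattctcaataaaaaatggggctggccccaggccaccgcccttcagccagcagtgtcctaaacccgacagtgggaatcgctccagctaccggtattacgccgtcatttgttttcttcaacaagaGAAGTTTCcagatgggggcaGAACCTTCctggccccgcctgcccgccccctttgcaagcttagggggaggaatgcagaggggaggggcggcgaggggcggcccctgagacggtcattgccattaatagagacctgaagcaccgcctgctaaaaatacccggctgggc
The promoter of Hspa1b at chr17:34959189-34959488 was identical to that of Hspa1a at 296 of 300 bases, and how reads were split between these near-identical genes is uncertain. GAANNTTC was found in 10 of 20 heat shock list promoters, against 5.99% of the 10270 promoters matched to the 13167 genes.

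Heat shock genes rose in 15 of 25 tested and fell in none, with a median log2 fold change of 0.71. Hspa1a stood at 4.35, 5.24, 5.7 and 4.44 CPM in sham and 25.6, 243, 102 and 26.6 CPM with lactate, a log2 fold change of 4.36 ± 0.66 (adjusted P = 0.00125). Hspb1 went from 1.98, 3.79, 3.12 and 1.6 CPM to 17.8, 24.8, 17.9 and 44.2 CPM, a log2 fold change of 3.33 ± 0.35 (adjusted P = 5.94e-05). Hspa1b stood at 0.396, 0.223, 1.09 and 0.617 CPM in sham and 4.33, 30.2, 9.23 and 3.13 CPM with lactate, a log2 fold change of 4.37 ± 0.76 (adjusted P = 0.0031). Lactate mouse 2 was the highest in Hspa1a and Hspa1b and mouse 4 in Hspb1, and every lactate mouse was above the sham mice in all 3 genes. For Hspa1a and Hspa1b this separation was a condition of their choice. Without lactate mouse 2 Hspa1a gave 3.396 (adjusted P = 0.000344) and Hspa1b 3.28 (adjusted P = 0.00118).

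Cryab, the small heat shock protein alpha B-crystallin, rose from 136, 118, 116 and 116 CPM to 208, 221, 249 and 210.1 CPM. Hsph1, the nucleotide exchange factor Hsp110, rose from 292, 347, 263 and 296 CPM to 533, 1497, 837 and 696 CPM, where mouse 2 was again the highest. Of the cochaperones, Stip1, Dnaja1, Hspe1, Chordc1 and Cacybp rose by 0.85, 0.87, 0.83, 0.84 and 0.71 on the log2 scale. Without lactate mouse 2 the list had 11 rises, since the mitochondrial chaperonin Hspd1 and the cytosolic Hsp90ab1 then fell short of 1.5-fold at 0.50 (adjusted P = 0.016) and 0.55 (adjusted P = 0.00226), and Dnajb1 and Bag3 gave 0.60 (adjusted P = 0.0673) and 1.18 (adjusted P = 0.0611). Hspa8, the constitutive Hsp70, had 0.55 ± 0.09 (adjusted P = 0.0023) and was under the 1.5-fold limit with all mice. The summed level of the list was 6926 to 7579 CPM in sham and 9497 to 13905 CPM with lactate.

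Of the genes of the unfolded protein and integrated stress response, many of them chaperones of the endoplasmic reticulum, 14 of 24 tested were higher and none lower, with a median of 0.80. Hspa5, the lumenal Hsp70 also known as BiP, stood at 108, 94.6, 148 and 157 CPM in sham and 305, 409.8, 279.9 and 312 CPM with lactate, a log2 fold change of 1.40 ± 0.17 (adjusted P = 0.00019). Sdf2l1, an ER chaperone cofactor, went from 3.43, 3.57, 4.48 and 4.93 CPM to 20.3, 16.8, 11.2 and 21.7 CPM, and Manf, a secreted ER stress factor, from 29.9, 23.6, 23.9 and 28.5 CPM to 72.5, 62.8, 45.2 and 72.5 CPM. Pdia6, Pdia3 and Pdia4, which form disulfide bonds, rose by 1.05, 0.99 and 0.95 on the log2 scale. Ddit3, the transcription factor CHOP, rose from 42.6 to 55.5 to 74.9 to 104 CPM. The call was kept in all 8 fits by 11 of the 14, and not by Dnajb11, Dnajc3 and Atf5.

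Metallothioneins bind zinc and copper, and metal response elements in their promoters are bound by the zinc sensor Mtf1. The promoters of Mt1 (chr8:94178839-94179138) and Mt2 (chr8:94172368-94172667), both on the plus strand, are shown because these neighbours rose with little spread between mice, and capitals mark TGCACNC or TGCGCNC on either strand.
Mt1: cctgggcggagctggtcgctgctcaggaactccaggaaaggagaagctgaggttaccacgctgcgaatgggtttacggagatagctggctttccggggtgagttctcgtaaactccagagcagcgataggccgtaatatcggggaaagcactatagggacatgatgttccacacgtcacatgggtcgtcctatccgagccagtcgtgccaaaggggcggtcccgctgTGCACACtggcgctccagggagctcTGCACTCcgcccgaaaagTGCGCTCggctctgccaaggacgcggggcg
Mt2: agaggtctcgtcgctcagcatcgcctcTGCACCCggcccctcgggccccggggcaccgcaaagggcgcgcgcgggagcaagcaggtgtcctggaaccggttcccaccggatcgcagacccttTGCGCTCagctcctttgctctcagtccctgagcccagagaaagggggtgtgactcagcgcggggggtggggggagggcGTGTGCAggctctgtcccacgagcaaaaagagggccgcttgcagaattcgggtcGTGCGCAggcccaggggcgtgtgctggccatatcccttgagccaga
There were 3 matches in Mt1 and 4 in Mt2. This short motif was common, in 36.5% of the 10270 promoters.

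Mt2 stood at 88.2, 72.3, 81.5 and 79.9 CPM in sham and 435, 429, 473 and 446 CPM with lactate, a log2 fold change of 2.50 ± 0.09 (adjusted P = 5.81e-09). Mt1 stood at 399.6, 394, 367 and 375 and 1187, 1082, 1283 and 1134 CPM, a log2 fold change of 1.64 ± 0.08 (adjusted P = 1.09e-07). Both groups were narrow and far apart. Hmox1, heme oxygenase 1, rose from 1.85, 1.45, 0.951 and 1.23 CPM to 12.4, 15.1, 12.1 and 16.2 CPM, a log2 fold change of 3.36 ± 0.24 (adjusted P = 1.17e-06). Among the targets of the oxidative stress factor Nrf2, Srxn1 and Gclc rose by 1.27 and 0.79, and Slc7a11, the cystine transporter, lost its rise of 0.69 ± 0.19 in 6 of the 8 fits. In all, 6 of the 19 genes of this list rose and none fell.

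Targets of the hypoxia-inducible factor rose in 6 of 20 and fell in none, with a median of 0.37. Slc2a1 and Slc2a3, the glucose transporters of the blood-brain barrier and of neurons, went from 52.5, 36.2, 47.4 and 45.1 CPM to 139.7, 129.7, 105 and 122 CPM and from 53, 57, 59.5 and 58.6 CPM to 81.5, 118, 91.4 and 84.6 CPM. Ddit4, an inhibitor of mTOR signalling, went from 33.4, 33.6, 39.9 and 44 CPM to 91.1, 100.1, 94 and 91.3 CPM, a log2 fold change of 1.35 ± 0.12 (adjusted P = 1.32e-05). P4ha1 and P4ha2, which hydroxylate collagen, rose by 0.81 and 1.13 on the log2 scale, and P4ha1 was not called with all 12 mice in one fit (adjusted P = 0.116). Vegfa, the vessel growth factor, had 0.94 ± 0.25 and lost its call in 5 of the 8 fits. The core hypoxia element ACGTG was found in 11 of 16 promoters of this list and in 25.1% of all 10270.

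None of the 14 tested genes of lactate metabolism, lactate transport and lactylation passed both limits with all mice. Ldha, the dehydrogenase subunit that favours lactate, stood at 769, 734, 744 and 774 CPM in sham and 1098, 1073, 887 and 803 CPM with lactate, a log2 fold change of 0.39 ± 0.10 (adjusted P = 0.0287), which is under 1.5-fold. Ldhb, the subunit that favours pyruvate, gave -0.13 ± 0.09 (adjusted P = 0.368). Hdac3, a deacetylase that can also remove lactyl groups, gave -0.47 ± 0.13 (adjusted P = 0.029), and its lactate mice, at 20.01, 18, 20.7 and 18 CPM, were all under the sham mice, at 27.3, 24.2, 29.3 and 27.9 CPM. The acyltransferases Ep300 and Crebbp gave -0.56 ± 0.27 (adjusted P = 0.198) and -0.54 ± 0.18 (adjusted P = 0.0675), and Crebbp passed both limits in 2 of the 8 fits that left out 1 mouse, with -0.68 (adjusted P = 0.0398) without lactate mouse 3 and -0.64 (adjusted P = 0.0457) without sham mouse 2.

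Of the monocarboxylate transporters, Slc16a3 (MCT4, of glycolytic cells) gave 1.09 ± 0.39 (adjusted P = 0.0901), Slc16a1 (MCT1) 0.32 ± 0.32 (adjusted P = 0.565) and Slc16a7 (MCT2, of neurons) -0.06 ± 0.29 (adjusted P = 0.918). These were low, at no more than 10.02, 4.43 and 8.28 CPM in any of the 8 mice. Their chaperone Bsg gave -0.17 ± 0.09 (adjusted P = 0.258). Mpc1, Mpc2 and Pdha1, which take pyruvate into mitochondria and on to acetyl-CoA, gave -0.02, -0.15 and -0.10, and Hdac1 and Hdac2 gave -0.17 and -0.02. The lactate receptor Hcar1 had at most 3 counts in a library and was not tested.

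Immediate early genes, which neurons transcribe within minutes of activity and which glia also use, differed widely among the lactate mice. Of 23 such genes tested, most of them transcription factors, 4 rose (Atf3, Maff, Myc and Ier3) and 2 fell (Egr1 and Npas4). Egr1 stood at 97.7, 102, 91.8 and 96.2 CPM in sham and 27.7, 76.5, 19.8 and 24.3 CPM with lactate, a log2 fold change of -1.35 ± 0.33 (adjusted P = 0.0166), with -1.24 (adjusted P = 0.0513) without lactate mouse 1 and -1.99 (adjusted P = 1.26e-06) without lactate mouse 2. With all 12 mice in one fit Egr1 was not called (adjusted P = 0.181). Npas4, a factor of activated neurons, stood at 22.2, 17.6, 28 and 22 CPM and 3.11, 18.2, 1.45 and 4.06 CPM. Lactate mouse 2 was the highest lactate mouse in both. The calls of Npas4, Maff, Myc and Ier3 were lost in 7, 4, 6 and 6 of the 8 fits, and Npas4 gave -2.91 (adjusted P = 2.9e-05) without lactate mouse 2.

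Fos, the classic activity marker, stood at 25.1, 29.2, 48.3 and 51.2 CPM in sham and 4.87, 53.3, 10.68 and 8.12 CPM with lactate and was not called, at -0.96 ± 0.55 (adjusted P = 0.292). Without lactate mouse 2 it gave -2.26 (adjusted P = 0.000466). Nr4a1, an orphan nuclear receptor, likewise went from -1.10 ± 0.37 (adjusted P = 0.0694) with all mice to -1.66 (adjusted P = 0.00293) without that mouse. Fosb, with 14.2, 12.6, 10.3 and 18.6 CPM in sham, stood at 13.4, 221, 19.4 and 12.8 CPM with lactate, so that mouse 2 alone was above the highest sham mouse by a wide margin. Without lactate mouse 2 no gene of the list rose and 9 fell, the further ones being Egr2 with -3.29 (adjusted P = 0.00857), Egr4 with -2.41 (adjusted P = 0.00979), Arc with -1.60 (adjusted P = 0.00241), Nr4a2 with -1.07 (adjusted P = 0.0122) and Btg2 with -1.26 (adjusted P = 0.0375). Atf3, a stress-induced factor, had 3.84 ± 0.99 (adjusted P = 0.0235) with all mice at 0.659, 0, 1.22 and 0 CPM in sham and 1.35, 15.4, 8.04 and 0.696 CPM with lactate, and 2.89 (adjusted P = 0.0711) without mouse 2. Its call was also lost without sham mouse 1, 2 or 4.

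Among 15 activity-regulated genes of later onset, Nptx2, a pentraxin that clusters AMPA receptors, rose from 6.73, 3.9, 4.75 and 5.8 CPM to 15.4, 91.7, 19.9 and 9.62 CPM, a log2 fold change of 2.73 ± 0.59 (adjusted P = 0.0102) that was called whichever mouse was left out but was 1.53 (adjusted P = 0.00316) without lactate mouse 2. Inhba, the activin A subunit, was at 36.6 CPM in lactate mouse 2 and 5.14 to 6.07 CPM in the other lactate mice, and went from 1.95 ± 0.58 (adjusted P = 0.0431) to 0.71 (adjusted P = 0.0954) without mouse 2. Rasl11b, with -0.63 ± 0.18, lost its fall in 6 of the 8 fits. The MAP kinase phosphatases gave no call among 9 tested with all mice, while Dusp5 was called higher without lactate mouse 3 and Dusp1 lower without sham mouse 2. Vehicle mice 2 and 3 were also above vehicle mice 1 and 4 in Fos, at 10.1, 138, 371 and 31.5 CPM, and in Fosb, at 36.4, 194, 418 and 15.3 CPM, but not in Rasl11b, at 87.1, 81.5, 148 and 96.2 CPM. What set lactate mouse 2 apart was not tested.

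**Figure D4:**
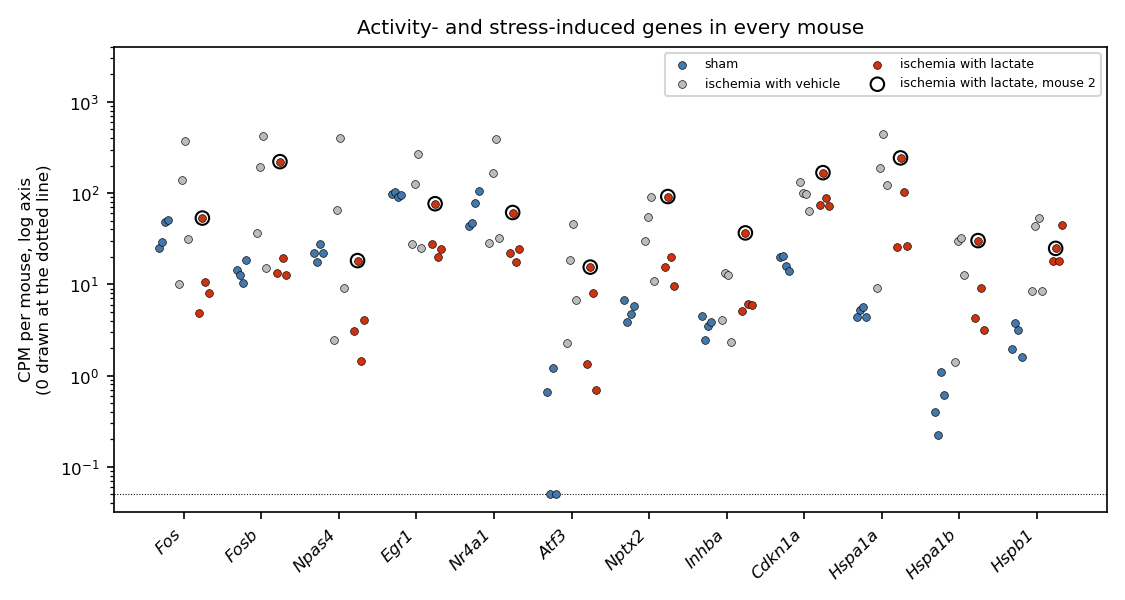
CPM on a log scale of immediate early, activity-regulated and stress genes in each sham, vehicle and lactate mouse, with lactate mouse 2 ringed. In Fos, Fosb, Egr1 and Npas4 the ringed mouse stands above the other 3 lactate mice, while in Cdkn1a and Hspb1 all 4 lactate mice lie above the sham mice.

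Genes induced by glucocorticoids, the stress hormones of the adrenal gland, rose in 12 of 17 tested, with a median of 1.33, and all 12 were called whichever mouse was left out. Sgk1, a kinase, stood at 58.8, 45.3, 45 and 59.3 CPM in sham and 179, 150.2, 174 and 185 CPM with lactate, a log2 fold change of 1.76 ± 0.12 (adjusted P = 1.17e-06). Fkbp5, a cochaperone of the glucocorticoid receptor, went from 14.5, 22.1, 16.6 and 16.8 CPM to 60.2, 69.1, 63.6 and 65.3 CPM, a log2 fold change of 1.91 ± 0.15 (adjusted P = 3.36e-06). Errfi1, Zbtb16, Klf9 and Tsc22d3 rose by 1.49, 1.33, 0.71 and 0.70, Klf9 not with all 12 mice in one fit (adjusted P = 0.292), and Angptl4 and Arrdc2 by 2.64 and 2.27. Angptl4 gave 3.24 (adjusted P = 5.17e-05) without sham mouse 2, and 2 of the 17 genes were under 1 CPM in every sham mouse. Lcn2, Cdkn1a and Plin4, which stand in this list too, answer to other signals as well. The receptor Nr3c1 fell from 43.4 to 61.6 to 21.6 to 36.5 CPM, by 0.69 ± 0.16, and gave -0.55 (adjusted P = 0.0283) without lactate mouse 3 and -0.61 (adjusted P = 0.052) without sham mouse 1.

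Cdkn1a, the cell cycle inhibitor p21 and a target of p53, stood at 20.04, 20.5, 16 and 13.9 CPM in sham and 74.8, 168, 88.3 and 72.6 CPM with lactate, a log2 fold change of 2.54 ± 0.26 (adjusted P = 4.63e-05). It was the only p53 target of 4 higher, out of 21 tested, to keep its call whichever mouse was left out. Gadd45g gave 0.59 (adjusted P = 0.0891) without lactate mouse 2, and Pmaip1 and Sesn1 lost the call in 7 and 7 of the 8 fits. Of 19 clock genes 3 fell and 1 rose, beside 2.84% lower and 3.99% higher of all 13167 genes. Ciart, a repressor of the clock, fell from 26.2, 19.6, 30.8 and 33.7 CPM to 15.3, 12.3, 12.7 and 19.4 CPM, a log2 fold change of -0.85 ± 0.19 (adjusted P = 0.0125). Dbp, Rorb and Nfil3 gave -0.84, -0.74 and 1.07, and their calls were lost in 6, 2 and 5 of the 8 fits.

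Endothelial genes were split, with 5 of 26 higher, 5 lower and a median of -0.26. Itm2a, a membrane protein enriched in brain endothelium, fell from 53.9, 63.4, 58.4 and 55.1 CPM to 28.3, 23.2, 21.4 and 25.2 CPM, a log2 fold change of -1.21 ± 0.13 (adjusted P = 9.02e-05), and Slco1c1, the thyroid hormone transporter of the barrier, fell by 0.76. Tjp1, the tight junction protein ZO-1, had -1.02 ± 0.26 and lost its call in 3 of the 8 fits. Ly6a, a surface antigen, rose from 78.5, 71.5, 85.8 and 80.3 CPM to 156, 115, 139 and 177 CPM, and Ly6c1, Esam, Mfsd2a and Edn1 rose by 0.86, 0.68, 1.09 and 1.40. Cldn5, the claudin of the barrier, was not called, with 20.6 to 27.4 CPM in sham and 15.0 to 22.99 CPM with lactate.

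In the list of mural cell, fibroblast and matrix genes 6 of 21 rose and none fell. Plaur, the urokinase receptor, rose from 0.791, 1.89, 1.77 and 1.36 CPM to 10.68, 18.2, 8.57 and 8.00 CPM, a log2 fold change of 2.97 ± 0.34 (adjusted P = 0.000141), and Plat, the tissue plasminogen activator, from 6.33, 5.46, 6.65 and 8.63 CPM to 14.2, 15.7, 16.5 and 11 CPM. Adamts1, a matrix protease, rose by 1.98 on the log2 scale, Col4a1, of basement membranes, by 1.11 and Timp3 by 0.67. Hemoglobin and red cell genes, read from blood left in the tissue, had a median of -0.43 over 7 genes tested, with none higher and 1 lower. The 1 called was Hbb-bt, at 44, 38.8, 43.7 and 44.8 CPM in sham and 33.8, 26.5, 24.4 and 25.2 CPM with lactate, a log2 fold change of -0.61 ± 0.13 (adjusted P = 0.0109), and lost its call in 3 of the 8 fits. Hbb-bs stood at 187, 189.7, 172 and 167 and 148, 129, 119 and 128 CPM, with -0.42 ± 0.10 (adjusted P = 0.0171), under 1.5-fold, and reads of these like genes may have been shared.

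Neurons' structural and release genes gave no call in 24 tested, beside 6.83% called of all 13167 genes. A count of 0 in 24 is near that share. Their log2 fold changes ran from -0.53 to 0.39. Stx1a, a syntaxin of the release machinery, moved furthest down among those named, from 392, 333, 389.9 and 338 CPM to 286, 245, 250.3 and 267 CPM, a log2 fold change of -0.44 ± 0.09 (adjusted P = 0.0081), which is under 1.5-fold. Of 35 glutamate and GABA receptor subunits 1 fell, Gabrb2, with -0.59 ± 0.17 and its call lost in 5 of the 8 fits, beside 2.84% of all 13167 genes. Leaving out 1 mouse gave 0 to 3 falls in this list. The median of these subunits was -0.21.

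Of 42 channels 3 fell and none rose, beside 2.84% lower and 3.99% higher of all 13167 genes. Scn1a, the sodium channel of fast-spiking interneurons, fell from 132, 85.4, 97 and 93.2 CPM to 40.2, 44.3, 57.5 and 66.7 CPM, a log2 fold change of -0.93 ± 0.17 (adjusted P = 0.00365), and was called in all 8 fits that left out 1 mouse but not with all 12 mice in one fit (adjusted P = 0.0592). Kcnv1, a modifier of potassium channels, had -0.71 ± 0.17 and -0.61 (adjusted P = 0.0598) without sham mouse 3, and Kcnj2 lost its call in 5 of the 8 fits. Among 36 receptors for monoamines, acetylcholine, opioids and peptides 3 fell and 1 rose, beside the same shares. The neuropeptide Y receptor Npy1r fell from 3.03, 2.01, 1.63 and 2.84 CPM to 0.541, 0.838, 0.396 and 0.928 CPM and the muscarinic receptor Chrm4 from 4.48, 5.46, 5.98 and 5.18 CPM to 2.84, 2.63, 2.77 and 2.2 CPM. Npy1r entered the test through the sham mice, and Chrm4 was not called with all 12 mice in one fit (adjusted P = 0.0951). Adrb1, the beta-1 adrenergic receptor, had -1.37 ± 0.34, with -1.25 (adjusted P = 0.056) without sham mouse 4, and the rise of Adra1b was lost in 7 of the 8 fits.

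Cort, the interneuron peptide cortistatin, fell from 20.8, 31.4, 24.2 and 27.4 CPM to 14.9, 13.9, 14.8 and 14.8 CPM, a log2 fold change of -0.81 ± 0.16 (adjusted P = 0.00638). The rise of Nts, neurotensin, was lost in 5 of the 8 fits. Ppp1r1b, the dopamine-regulated phosphatase inhibitor DARPP-32 of the striatum, rose from 272, 341, 235 and 299.6 CPM to 511, 443, 384 and 452 CPM with a log2 fold change of 0.67 ± 0.13 (adjusted P = 0.00564), and gave 0.58 (adjusted P = 0.021) without sham mouse 3, just short of 1.5-fold. With all 12 mice in one fit Ppp1r1b was not called (adjusted P = 0.191). The other 17 striatal genes were not called, and the list's median was 0.02.

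Oligodendrocyte genes fell in 4 of 19 and rose in none, and 1 of the 4 kept the call whichever mouse was left out. Aspa, which breaks down N-acetylaspartate, fell from 18.6, 15.4, 13.7 and 9.5 CPM to 8.25, 7.3, 6.59 and 5.68 CPM, a log2 fold change of -1.01 ± 0.22 (adjusted P = 0.00955), and was called in all 8 fits that left out 1 mouse but not with all 12 mice in one fit (adjusted P = 0.0683). Mog, a surface protein of myelin, stood at 246, 172, 210.2 and 140.4 CPM in sham and 119, 121, 127 and 126 CPM with lactate and gave -0.48 (adjusted P = 0.0383) without sham mouse 1 and -0.56 (adjusted P = 0.044) without sham mouse 3. Opalin, of mature oligodendrocytes, had -0.72 ± 0.15 and -0.56 (adjusted P = 0.0251) without sham mouse 1. Ugt8a, which makes myelin galactolipids, had -0.69 ± 0.21 and lost its call in 7 of the 8 fits. Mbp, of compact myelin, gave a log2 fold change of -0.02 and was not called.

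Of the Notch genes, which pass signals between touching cells, 2 of 17 fell and none rose. Of all 13167 genes 2.84% fell and 3.99% rose. Jag2, a ligand, fell from 10.68, 9.47, 8.01 and 6.66 CPM to 3.92, 3.95, 4.48 and 5.22 CPM, a log2 fold change of -0.95 ± 0.21 (adjusted P = 0.011). Nrarp, a feedback target of the pathway, had -1.07 ± 0.31 and lost its call in 5 of the 8 fits. Hes5, another target, was not called, with -1.16 ± 0.40 (adjusted P = 0.0784). Without lactate mouse 2 the list had 4 falls in place of 2, and Hes5 was one of them at -1.75 (adjusted P = 0.00952). Of 24 cholesterol genes Ch25h, which makes the immune oxysterol 25-hydroxycholesterol, rose from 0.132 to 0.493 to 3.01 to 4.35 CPM, and Fdft1, squalene synthase, had 0.61 ± 0.13 and lost its call in 4 of the 8 fits. Ch25h entered the test through the lactate mice.

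Some genes of other tissues and regions moved as well. Ttr, transthyretin, made mainly by the choroid plexus, rose from 2.9, 1.23, 0.815 and 0.987 CPM to 16.2, 7.78, 15.4 and 16 CPM, a log2 fold change of 3.25 ± 0.36 (adjusted P = 9.5e-05), while vehicle mouse 2 stood at 1817 CPM and Ttr was not called with all 12 mice in one fit (adjusted P = 0.281). The hypothalamic peptide Agrp rose from 7.12, 5.8, 6.52 and 5.55 CPM to 16.6, 16.9, 18.3 and 22 CPM, a log2 fold change of 1.60 ± 0.17 (adjusted P = 6.05e-05), and Wfs1, wolframin, from 14.6 to 21.6 to 27.7 to 53.3 CPM. Whether the dissected tissue differed between mice was not tested, and among 16 genes of other brain regions 2 rose and 1 fell. Of 12 choroid plexus genes 10 were too low to test.

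Among abundant genes, Kif3a, a kinesin motor subunit, stood at 2186, 2591, 2288 and 2249 CPM in sham and 3908, 3225, 3669 and 3932 CPM with lactate, a log2 fold change of 0.69 ± 0.09 (adjusted P = 0.000572). Timm22, a mitochondrial import protein, went from 509, 621, 534 and 512 to 963, 776, 874 and 947 CPM. Ccdc36, chosen after its values were seen, went from 493, 608, 514 and 494 to 946, 764, 861 and 936 CPM. The ratio of Kif3a to Timm22 stayed between 4.06 and 4.50 in all 12 mice, and that of Timm22 to Ccdc36 between 1.01 and 1.06, so the 3 genes moved as one value and whether they shared reads was not tested. Of the mitochondrial transcripts, mt-Nd4 stood at 4583, 3301, 5808 and 6837 CPM in sham and 3227, 3176, 3809 and 2425 CPM with lactate, and its fall of 0.67 ± 0.18 was lost in 5 of the 8 fits.

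The genes that rose were shorter than those that fell. The median annotated exonic length was 3524 bases among the 525, 5278 bases among the 374 and 4558 bases over the genes tested. Of the shortest eighth of the genes 7.47% rose and 1.94% fell, and of the longest eighth 2.55% rose and 4.07% fell. The median log2 fold change of these eighths was -0.02 and -0.13. Rises in the longest eighth numbered 42, and 25 without lactate mouse 2 or without sham mouse 3. Read length was not given per library, and its part in this was not tested.

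**Figure D5:**
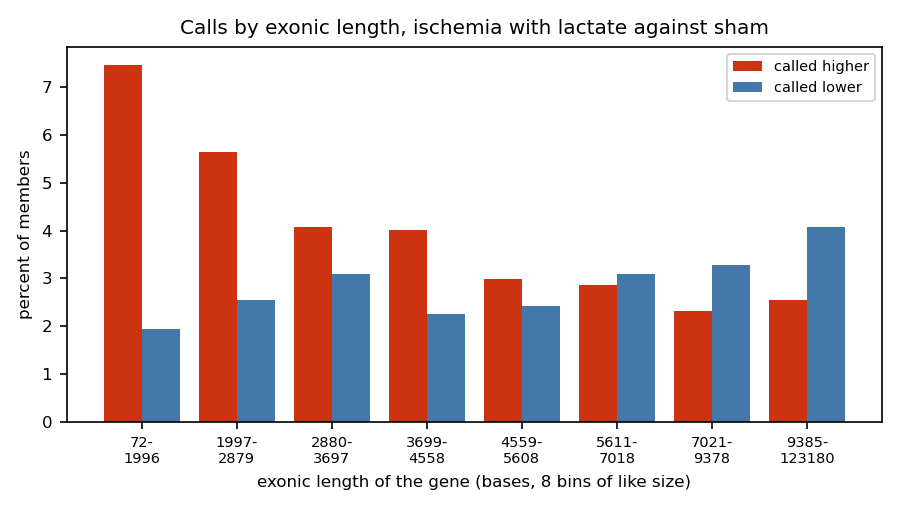
Share of genes higher and lower with lactate in eighths of the 13165 genes ordered by annotated exonic length. The share higher is 7.47% in the shortest eighth and 2.55% in the longest, and the share lower 1.94% and 4.07%.

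Promoters of the genes that moved were searched on both strands for 9 motifs, which may overlap each other, in the same 300-base windows. A promoter was matched for 397 of the genes that rose and 309 of those that fell. The AP-1 site TGANTCA was found in 9.57% of the promoters of genes that rose, 6.47% of those that fell and 4.81% of all 10270, and the NF-kappa B site in 16.4%, 7.77% and 10.01%. GAANNTTC was in 9.82%, 4.85% and 5.99%, the STAT site TTCNNNGAA in 9.07%, 5.18% and 6.73%, and TGATGNAA, bound by Atf4 with a C/EBP partner, in 4.03%, 1.94% and 2.28%. The cyclic AMP response element TGACGTCA was in 1.76%, 0.647% and 3.24%, ACGTG in 21.9%, 21.04% and 25.1%, the metal response element in 30.2%, 34.3% and 36.5%, and the CArG box in 2.52%, 2.27% and 1.35%. These shares are descriptions of the windows.

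The lactate mice were also tested against the vehicle mice, which had the same ischemia. In this comparison, 0 of 17419 genes and loci were higher (0%) and 1 was lower (0.00574%) by the edgeR quasi-likelihood test, with 1540 at an unadjusted P under 0.05, of which 948 were among the 12999 described genes tested there. DESeq2 called 30 higher and 8 lower. The gene called was Rsrp1, at 335, 586, 443 and 634 CPM in the vehicle mice and 98.3, 169, 143 and 157 CPM in the lactate mice, a log2 fold change of -1.84 ± 0.21 (adjusted P = 0.0328). It was not called when any lactate mouse, or vehicle mouse 2 or 4, was left out, and leaving out vehicle mouse 3 gave 4 lower genes.

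Several genes that rose over sham were also higher in the lactate mice than in the vehicle mice without passing the adjusted limit. Lcn2, at 24.8, 22.5, 21.5 and 27.3 CPM with vehicle, gave 0.85 ± 0.14 (adjusted P = 0.265), and the groups did not overlap. Timp1, at 7.12, 8.94, 13.1 and 14.8 CPM with vehicle, gave 1.38 ± 0.24 (adjusted P = 0.265), and Ccl12, at 6.46, 2.85, 5.23 and 8.22 CPM, gave 2.19 ± 0.30 (adjusted P = 0.0978), again with no overlap. Spp1, at 17, 45.2, 49.7 and 57.5 CPM with vehicle, gave 1.20 ± 0.29 (adjusted P = 0.434). Other genes were alike or spread widely in the vehicle group, such as Sgk1 at 158, 166, 167 and 155 CPM, Socs3 at 7.96, 10.75, 10.3 and 9.54 CPM and Mt2 at 390.2, 208, 265 and 486 CPM. S100a8 stood at 6.09, 26.2, 36.1 and 5.72 CPM with vehicle and Hspa1a at 9.08, 189, 449 and 123 CPM, where vehicle mouse 1 was close to the sham mice, with differences of -0.58 ± 0.53 (adjusted P = 0.778) and -0.96 ± 0.88 (adjusted P = 0.778). At this spread between mice, with a biological coefficient of variation of 25.0% against 18.6% in the comparison with sham, an adjusted P above 0.05 does not show that lactate left these genes as vehicle did.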

How the data were processed

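The authors sequenced full-length cDNA of each brain on a nanopore PromethION, kept reads of quality 7 and 500 bases or more, removed ribosomal RNA and chimeric reads, aligned with minimap2, and built transcripts with pinfish and gffcompare. The submitters' processing notes name GRCm38 and DESeq 1.10.1. How reads were counted per gene, and the annotation release, are not given in the sources used here. The deposited counts are whole reads per gene, and the deposited CPM values are those counts scaled to the total over all listed genes and loci, both made by the authors. Columns of the authors' own comparisons (P values, fold changes and calls) were not used, and 0 per-sample columns were left out.

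From the counts, edgeR 4.0.16 (R 4.3.3) was run with TMM scaling and the quasi-likelihood F test, Benjamini-Hochberg adjustment, on all genes and loci with 1 CPM in at least 4 of the 8 mice compared. For a call, the adjusted P had to be under 0.05 and the fold change 1.5 or more. DESeq2 1.42.0, limma 3.58.1 (voom), other scaling, filters and fold limits, a replicate block, all 12 mice in one fit, Ensembl genes alone and leaving out each mouse were tried as alternatives. On simulated counts for the 17262 genes and loci, 74% of 2-fold and 99% of 4-fold changes were recovered with 6 false calls. For the comparison with vehicle, over 17419, these were 50%, 97% and 6. The simulated counts gave every gene the same biological coefficient of variation, 18.6% against sham and 25.0% against vehicle. Real genes differed in spread, so these figures need not hold for them. Groups came from the sample labels, which number the mice within each group, and P values measure the spread between these mice.

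The genes, the 37 gene lists and the naming rule were chosen with earlier results of these data known. Named were the 12 largest rises and falls without overlap of the groups and with a mean of at least 3 CPM, the 3 list members of smallest P (in the lactate list all tested), and the 5 most abundant genes called each way, 143 in all. A further 113 were chosen after their values were seen, most of them the other called members of the lists. Some named genes are not reported here. Symbols spelled as dates, 27 in number, were restored from the Ensembl identifier, 4 lines naming no gene were left out, and 22022 of the 22036 identifiers were found in GENCODE M21, used for positions and exonic length. Intervals on count ratios are exact 95% binomial and cover counting error only.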

Additional observations from a re-analysis of the deposited data

Results flagged for a closer look

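Among the 512 sets of 4 mice examined, 1 for each named gene and group, 36 had a mouse standing so far from the other 3 that its gap passed Dixon's 95% limit. Chance alone gives about 1 in 20, but 113 of the genes were chosen after their values were seen, some for lactate mouse 2, so the count cannot be set against that rate. Lactate mouse 2 was that mouse in 20 sets.

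Lactate mouse 2 was the highest of its group in Egr1 at 76.5 CPM, Egr2 at 10.4 CPM, Egr4 at 8.503 CPM, Fos at 53.3 CPM, Fosb at 221 CPM, Nr4a1 at 61.3 CPM, Npas4 at 18.2 CPM, Arc at 119.0 CPM, Nptx2 at 91.7 CPM, Inhba at 36.6 CPM, Dusp4 at 10.8 CPM, Cdkn1a at 168 CPM, Sphk1 at 53.1 CPM, Nfil3 at 10.4 CPM and Kcnv1 at 19.5 CPM. The same mouse was the lowest of its group in Ifitm2 at 21.8 CPM, Cort at 13.9 CPM, Ttr at 7.78 CPM, Rarres2 at 15.1 CPM and S100a6 at 126 CPM.

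Lactate mouse 1 was low in Ccl2 at 1.22 CPM, Ifit3 at 6.49 CPM and Tyrobp at 151 CPM and high in Col3a1 at 5.54 CPM. Lactate mouse 3 was low in Dnajb11 at 42.7 CPM. Lactate mouse 4 was high in H2-K1 at 45.5 CPM, Serpina3n at 67.6 CPM and Dbp at 31.4 CPM.

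Among the sham mice, mouse 1 was high in Retnlg at 0.527 CPM, Cryab at 136 CPM and the noncoding RNA Snhg11 at 925 CPM. Sham mouse 2 was low in Ctss at 93.1 CPM and Slc7a11 at 18.3 CPM. Sham mouse 3 was high in Dnajc3 at 11.1 CPM and low in Ifit3 at 5.98 CPM, and sham mouse 4 was high in Pdia4 at 11.5 CPM.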

How the results depend on the processing

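Of 207 named genes called against sham, 105 kept the call under every alternative run and 102 lost it under at least one. With a fold limit of 2 the genes higher numbered 296 in place of 525 and those lower 121 in place of 374, and the calls in the gene lists fell from 186 to 121. Genes lower also moved to 242 with all 12 mice in one fit, 241 with Ensembl genes alone and 758 at an unadjusted P under 0.05. Leaving out 1 mouse at a time gave 423 to 546 genes higher, 214 to 374 lower and 154 to 181 list calls. The other alternatives kept these counts within 1.5 times.

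Same-numbered sham and lactate mice deviated together little (correlations of 0.11, 0.12, 0.05 and -0.03). The labels do not say whether the numbers pair mice, and these values cannot settle it. With the replicate number as a block, 555 genes were higher, 401 lower and 196 list genes called, and 0 were higher and 1 lower against vehicle.

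Against vehicle the 0 genes higher became 30 with DESeq2, 198 at an unadjusted P under 0.05 and 1 with all 12 mice, with no filter or with Ensembl genes alone. The 1 gene lower became 8 with DESeq2, 352 unadjusted and 0 with all 12 mice or voom, and leaving out 1 mouse gave 0 to 4. The cause of these shifts was not tested.

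Among the named genes, directions turned only in those not called with all mice, with log2 values here. Against sham, leaving out 1 mouse moved Slc16a7 from -0.29 to 0.16, Mpc1 from -0.074 to 0.011, Hdac2 from -0.16 to 0.16 and Arc from -1.60 to 0.078. Mpc1 was 0.027 with Ensembl genes alone, and Hdac2 was 0.022 with voom, 0.024 with Ensembl genes alone and 0.011 with the block. Against vehicle, leaving out 1 mouse moved Retnlg from -0.38 to 0.44, Tmem252 from -0.44 to 0.11, S100a9 from -0.95 to 0.053 and Ccl2 from -0.39 to 0.14. Retnlg was 0.47 with voom, 0.020 with Ensembl genes alone and 0.29 with the block. The fits by length without 1 mouse were chosen after the data were seen. Genes under 3 counts in a group have fold changes set largely by counting error.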

Other observations

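Olfr1033, annotated as an olfactory receptor, stood at 1.58, 1.89, 2.72 and 1.97 CPM in sham, 19.8, 26.4, 50.7 and 44.9 CPM with vehicle and 29.1, 41.3, 33.5 and 22.3 CPM with lactate, a log2 fold change over sham of 3.97 ± 0.24 (adjusted P = 3.53e-07) by edgeR. Adh1, an alcohol and retinol dehydrogenase, stood at 2.24, 3.01, 2.99 and 1.97 CPM in sham, 0, 0.648, 0.124 and 0 CPM with vehicle and 0.135, 0.12, 0.132 and 0 CPM with lactate, or 82 counts in the sham libraries and 3 in the lactate libraries. Both were chosen after their values were seen.

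Beside 2.84% of all 13167 genes, falls were fewest among the most abundant eighth of the genes, at 1.03%, and most among genes of middle abundance, at 4.19%.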
